A study of Rattus norvegicus with 6 samples.

Results

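The aryl hydrocarbon receptor, its partners and its best known target genes were followed in primary cardiomyocytes of 7-day-old Sprague-Dawley rats. The culture medium held 10% fetal bovine serum, and the cells received vehicle (control, 3 libraries) or 100 nM of the steroid hormone progesterone (progesterone, 3 libraries) during 24 h. Strain, age, medium and exposure time were common to both groups, and mRNA-enriched RNA was sequenced. Each group had 3 biological replicates by the labels, which do not say whether these were separate animals or cultures, so the spread behind each p-value may be technical. The study asked about YAP, a transcriptional coactivator, as named in its title, and progesterone against vehicle was its only comparison.

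The 7 genes Ahr, Arnt, Ahrr, Cyp1a1, Cyp1b1, Tiparp and Aldh3a1 were taken by name from the 33565 rows of the count table, and each name had a single row. They were put together with the values of this comparison already known. Their differences between control and progesterone libraries are therefore given as a description, without a test. All 7 passed the filter on low counts, Cyp1a1 only through the progesterone libraries.

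The aryl hydrocarbon receptor (AHR) is a ligand-activated transcription factor of the bHLH-PAS family. Without ligand it is held in the cytosol by HSP90 and its co-chaperones. Dioxins, polycyclic hydrocarbons and indole or tryptophan products bind it, and it then moves to the nucleus, pairs with ARNT and binds DNA elements with the core GCGTG. Genes of the CYP1 cytochrome P450 enzymes are its classical targets, and the products of Ahrr and Tiparp, which it also induces, act back on the receptor as repressors. In the heart the receptor is known from studies of the cardiac toxicity of dioxins during development.

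The upstream sequences are shown because the core element can be looked for in them. The RefSeq promoter table (build GRCr8) held 5 of the 7 genes, and Cyp1a1 and Aldh3a1 were not among them. The 250 bases before the annotated start of 3 target genes are printed 5′ to 3′ on the strand of the gene, with GCGTG or its reverse complement CACGC in capitals. They are, in order, Ahrr (chr1:30821969-30822218, plus strand), Cyp1b1 (chr6:21094315-21094564, plus strand) and Tiparp (chr2:152063519-152063768, plus strand).
Ahrr: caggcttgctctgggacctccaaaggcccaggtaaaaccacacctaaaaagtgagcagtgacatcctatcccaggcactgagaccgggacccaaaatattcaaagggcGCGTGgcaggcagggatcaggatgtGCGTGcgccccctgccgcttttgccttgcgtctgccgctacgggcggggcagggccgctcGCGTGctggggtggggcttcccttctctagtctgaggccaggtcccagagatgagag
Cyp1b1: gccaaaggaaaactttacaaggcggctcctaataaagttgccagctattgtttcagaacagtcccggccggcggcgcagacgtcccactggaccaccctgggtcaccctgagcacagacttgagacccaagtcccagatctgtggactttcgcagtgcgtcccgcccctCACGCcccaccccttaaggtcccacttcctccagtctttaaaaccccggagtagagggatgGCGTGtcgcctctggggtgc
Tiparp: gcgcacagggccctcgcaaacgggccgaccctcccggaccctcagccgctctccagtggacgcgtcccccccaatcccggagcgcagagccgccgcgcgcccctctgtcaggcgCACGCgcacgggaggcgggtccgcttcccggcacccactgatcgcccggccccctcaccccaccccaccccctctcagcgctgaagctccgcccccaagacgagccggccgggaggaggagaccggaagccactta

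Both strands were searched. The Ahrr window held 3 matches to GCGTG, starting 142, 117 and 57 bases before the start, and 2.58% of the 33469 windows of this length in the table held at least 3. The Cyp1b1 window held 2, starting 81 and 20 bases before the start, and 8.12% of all windows held at least 2. The Tiparp window held 1, starting 136 bases before the start. The Arnt window also held 1, the Ahr window none, and 25.89% of all windows held at least 1. The longer form TNGCGTG, which contains GCGTG, was found in the windows of Ahrr and Cyp1b1 and in 4.09% of all windows. These matches describe letters and not binding sites, and elements farther upstream lie outside the window. The windows of these genes held from 57.6% (Arnt) to 75.2% (Ahr) G and C, and the shares over all windows were not matched for this. Whether the matches bear on the differences between the libraries was not tested. Cyp1b1 is on the plus strand in the promoter table but on the minus strand in the count table, whose rat build is not named. Whether its window lies upstream of the counted gene model was not checked.

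In the libraries, Cyp1a1 and Ahrr stood far apart from the other 5 genes. Cyp1a1 was near the limit of detection in control cells and was read in all 3 progesterone libraries, at 60.5 times the control level by the fitted fold change. Ahrr was 9.78 times higher. Cyp1b1 and Ahr were higher by 1.52 and 1.36 times, while Tiparp, Arnt and Aldh3a1 were lower. In bulk RNA, a change in the number of cells of a type and in the RNA per cell cannot be told apart. A fit over all 15075 genes that passed the filter, with edgeR's quasi-likelihood test and Benjamini-Hochberg adjustment at 0.05, called 4 of the 7 genes higher and 3 lower. The same fit called 31.2% of all genes tested higher and 31.8% lower, and since the genes were chosen on this contrast nothing is read from their count. The CPM values (counts scaled by library total and by TMM, edgeR's library factor) of the groups did not overlap for any of the 7 genes, and 68.6% of all genes tested had groups that did not overlap. With upper quartile scaling 60.1% of all called genes were higher, against 49.6% with TMM, the median over all genes shifted by 0.10 on the log2 scale, and 1 of the 7 genes was called lower instead of 3.

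**Figure D1:**
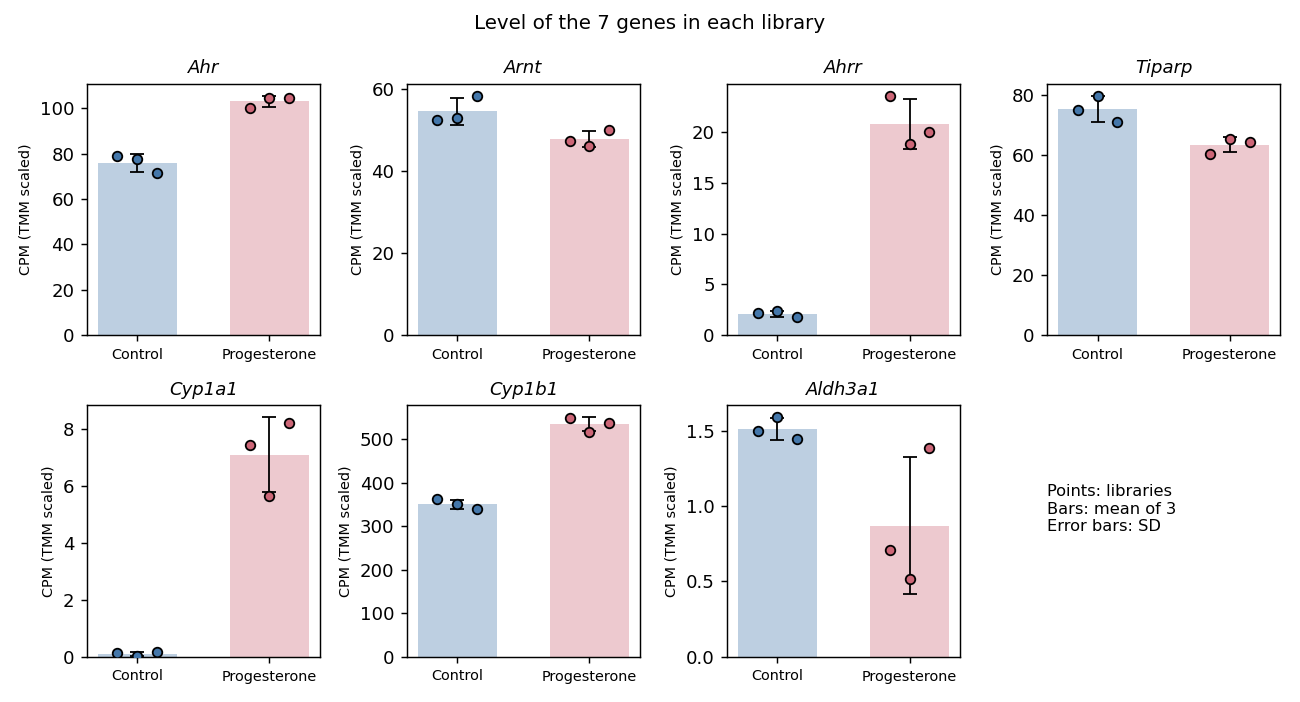
Level of each gene in CPM (TMM scaled, vertical axes from 0) in the 3 control and 3 progesterone libraries, with points for libraries, bars for means and error bars for SD. Cyp1a1 and Ahrr are close to 0 in the control panels and at 5.65 to 8.18 and 18.8 to 23.6 CPM with progesterone, whereas the other 5 genes change by less than 2-fold.

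Ahr, the receptor itself (ENSRNOG00000004342, chromosome 6, 54963990 to 55001464, minus strand, in a rat build that no label or header names, as for all gene coordinates of the count table), was read at 78.8, 77.8 and 71.5 CPM in the controls and at 100.4, 104.4 and 104.8 CPM with progesterone. All progesterone libraries lay above all control libraries. The log2 fold change was 0.44 ± 0.05 (SE), from 76.0 ± 3.97 to 103.2 ± 2.45 CPM (SD, n = 3).

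Arnt, the dimerization partner that the receptor shares with the hypoxia-inducible factors (ENSRNOG00000031174, chromosome 2, 196594303 to 196651179, plus strand), was read at 52.6, 52.9 and 58.5 CPM in the controls and at 47.5, 46.1 and 50.1 CPM with progesterone. The progesterone libraries were lower without overlap, and the gap between the groups was narrow. The log2 fold change was -0.19 ± 0.06, and -0.09 with upper quartile scaling, where it was not called.

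Ahrr, the repressor that competes with the receptor for ARNT (ENSRNOG00000014721, chromosome 1, 31603297 to 31698329, plus strand), was read at 2.20, 2.36 and 1.79 CPM in the controls and at 23.6, 18.8 and 20 CPM with progesterone. Its pooled counts were 152 in the controls and 1360 with progesterone. The ratio of pooled counts per library total was 9.68 (exact binomial 95% interval 8.18 to 11.5, for counting error only), and the log2 fold change was 3.29 ± 0.13. It had rank 56 from the top among the log2 fold changes of the 15075 genes tested, of which 0.478% were called higher by at least 8-fold.

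Tiparp, a mono-ADP-ribosyltransferase that the receptor induces and that acts back on it (ENSRNOG00000011238, chromosome 2, 157316266 to 157341469, plus strand), was read at 75.0, 79.6 and 70.9 CPM in the controls and at 60.4, 65.3 and 64.3 CPM with progesterone. Its groups were apart in the opposite direction to those of Ahrr. The log2 fold change was -0.25 ± 0.05, and -0.15 with upper quartile scaling.

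Cyp1a1, the xenobiotic-oxidizing enzyme whose gene is the usual readout of the receptor (ENSRNOG00000019500, chromosome 8, 62472095 to 62478147, plus strand), had 3, 1 and 4 counts in the control libraries and 157, 120 and 189 in the progesterone libraries. In CPM these were 0.118, 0.0429 and 0.175 against 7.44, 5.65 and 8.18. The groups were far apart in spite of the low counts of the control libraries. The ratio of pooled counts, 466 against 8, was 63.0 (exact binomial 95% interval 31.7 to 146.9, again for counting error only), and the log2 fold change was 5.92 ± 0.31. It had rank 6 from the top among the log2 fold changes of all genes tested. On the log2(FPKM + 1) scale, which understates the change of low genes, the differences were 1.81 for Cyp1a1 and 1.90 for Ahrr.

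Cyp1b1, the family 1 enzyme of extrahepatic tissues (ENSRNOG00000040287, chromosome 6, 2307808 to 2316722, minus strand), was read at 361.1, 350.3 and 340.3 CPM in the controls and at 548.5, 516.9 and 535.5 CPM with progesterone. The groups were apart, and within each group the libraries differed by about 3% of the mean (coefficient of variation 2.96% and 2.97%). The log2 fold change was 0.61 ± 0.04.

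Aldh3a1, an aldehyde dehydrogenase of the classical AHR gene battery (ENSRNOG00000002331, chromosome 10, 47490153 to 47499876, plus strand), had 38, 37 and 33 counts in the controls and 15, 11 and 32 with progesterone. In CPM these were 1.5, 1.59 and 1.44 against 0.710, 0.518 and 1.39. Progesterone replicate 3 lay close to the controls, and the other 2 progesterone libraries were lower. The log2 fold change was -0.78 ± 0.32. It was -1.29 without progesterone replicate 3, and it was not called when any control library, progesterone replicate 1 or progesterone replicate 2 was left out (-0.51 without progesterone replicate 2), or by DESeq2 or with upper quartile scaling.

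Reads of neighbouring genes were compared because Ahrr and Cyp1a1 have genes close to their 3′ ends on the same strand. Rows within 5000 bases of any of the 7 genes were looked up, a rule chosen after the values were seen. Exoc3, an exocyst subunit gene, begins 2623 bases beyond Ahrr and was at 40.9 ± 0.54 and 47.9 ± 1.74 CPM (log2 fold change 0.23 ± 0.05). Edc3, an mRNA decapping gene, begins 3992 bases beyond Cyp1a1 and was at 22.1 ± 1.59 and 22.4 ± 0.69 CPM (log2 fold change 0.02 ± 0.07). Neither neighbour showed a difference of the size seen in Ahrr or Cyp1a1. Both begin beyond the 3′ ends, so their levels do not show whether all reads of Ahrr and Cyp1a1 are their own. Arnt had a neighbour on the same strand at either end. Setdb1-ps1, a long noncoding RNA in the deposited annotation and a transcribed pseudogene in RefSeq, ends 2978 bases before Arnt and fell from 7.61 ± 1.01 to 4.68 ± 0.63 CPM (log2 fold change -0.70 ± 0.15), a larger difference than that of Arnt itself. Ctsk, the cathepsin K gene 4289 bases beyond Arnt, was at 91.9 ± 6.48 and 89.7 ± 9.04 CPM (log2 fold change -0.04 ± 0.08). A U6 RNA row 2128 bases from Tiparp had no count in any library.

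Levels can be set between genes only per length, for which the deposited FPKM values (fragments per kilobase, scaled by library total) were used. In the controls the order was Cyp1b1 (63.5 ± 1.99 FPKM), Tiparp (31.8 ± 1.83), Arnt (22.3 ± 1.33), Ahr (14.7 ± 0.78), Aldh3a1 (0.859 ± 0.041), Ahrr (0.450 ± 0.062) and Cyp1a1 (0.0423 ± 0.0250). With progesterone it was Cyp1b1 (96.6 ± 2.98 FPKM), Tiparp (26.8 ± 1.06), Ahr (20 ± 0.45), Arnt (19.5 ± 0.84), Ahrr (4.41 ± 0.53), Cyp1a1 (2.67 ± 0.49) and Aldh3a1 (0.495 ± 0.259). The only neighbours whose libraries overlapped were Ahr, from 19.5 to 20.3 FPKM, and Arnt, from 18.8 to 20.4 FPKM, with progesterone. Cyp1b1 was the most abundant of the 7 genes in all 6 libraries, and Aldh3a1 moved from the fifth to the last place.

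**Figure D2:**
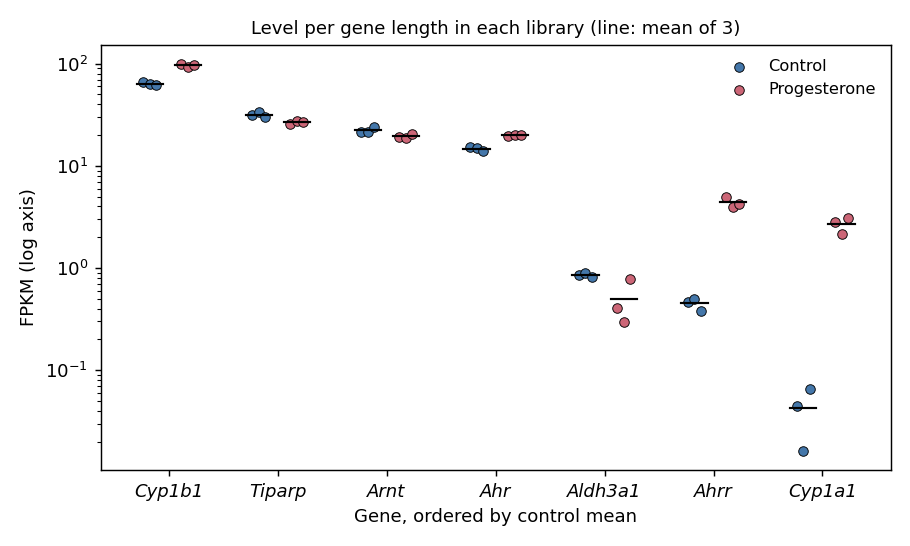
FPKM of each gene (log axis) in the 3 control and 3 progesterone libraries, ordered by the control mean, with a line at each mean. Cyp1b1, Tiparp, Arnt and Ahr stay between 13.8 and 99.4 FPKM, and Ahrr and Cyp1a1 stand higher with progesterone, at means of 4.41 and 2.67 FPKM.

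The balance of the receptor and its partners differed between the groups. The ratio of Ahr to Arnt in FPKM was 0.712, 0.698 and 0.581 in the controls and 1.00, 1.08 and 0.993 with progesterone. The ratio of Ahrr to Ahr was 0.0307, 0.0333 and 0.0275 in the controls and 0.257, 0.198 and 0.209 with progesterone, so that the repressor's mRNA stayed below that of the receptor in every library. Between the CYP1 genes the ratio of Cyp1b1 to Cyp1a1 was 36.9 ± 6.39 with progesterone. In the controls it ran from 932.3 to 3914, a range that rests on 1 to 4 counts of Cyp1a1 per library. These ratios use the same values as the fold changes and are no further evidence.

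Genes with the most similar pattern were sought by the distance of log2 CPM over the 6 libraries, after subtracting the control mean of each gene. Ahrr was nearest to Adamtsl2 (distance 0.345, from 12.2 ± 1.70 to 108.7 ± 8.63 CPM), Igf2 (0.43, from 33.8 ± 0.81 to 281.8 ± 14.6 CPM) and Col8a2 (0.44, from 11.3 ± 1.38 to 114.8 ± 8.16 CPM). Only these 3 genes lay within a distance of 0.5. Cyp1a1 had no gene within 0.5. Its nearest were Epha8 (0.92), Acan (1.10) and the row named Mir675 (1.66). That row is the precursor of a miRNA that lies within the H19 transcript, and in mRNA-enriched RNA its reads cannot be told apart from those of the host.

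For Ahr, Cyp1b1, Arnt and Tiparp, whose differences were small, the likeness was less selective. Ahr was nearest to Snx5, Hnrnph1 and Odf2, with 2798 genes within 0.5. Cyp1b1 was nearest to Gpatch11, Hnrnpdl and Rnaseh2c, with 1673 such genes. Arnt was nearest to Cds2, Atg2b and Ets2, with 4330 such genes, and Tiparp to Etv5, AABR07045680.1 and Ogfod2, with 3953. Aldh3a1 was nearest to Rwdd3, AABR07002774.4 and Epsti1, with only 5 such genes. Its counts were low, and its progesterone libraries ran from 0.518 to 1.39 CPM.

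The labelled cell type was checked against markers, and other cell types were read in the same libraries. All 12 cardiomyocyte markers in the table were expressed, among them the myosin genes Myh6 (4384 ± 269.6 and 3498 ± 220.5 CPM), Myh7 (1649.8 ± 9.09 and 1820.1 ± 95.3 CPM) and the troponin gene Tnnt2 (2307 ± 28.4 and 1881 ± 120.4 CPM). Of these 12 markers, 5 were higher and 5 lower, and their summed level was 20828 to 21279 CPM in the controls and 22420.4 to 25439.8 CPM with progesterone. Of 10 smooth muscle and pericyte markers, 9 were higher and 1 lower, and their summed level went from 2364 to 2729 CPM in the controls to 5602 to 6193 CPM with progesterone. Of 8 leukocyte markers tested, 7 were higher and 1 lower, with sums of 32.4 to 52.3 and 160.4 to 183.0 CPM. Lyz2 alone went from 7.06 ± 3.33 to 109.7 ± 6.46 CPM, and the lower marker was Cd74 (12.6 ± 1.52 and 1.63 ± 0.55 CPM). Of 9 fibroblast markers, 5 were higher and 3 lower (Pdgfra, Dcn and Ddr2), with sums of 27517 to 28606 and 36955 to 39916 CPM. Of 9 endothelial markers, 2 were higher and 4 lower, with lower sums with progesterone (519.1 to 604.8 CPM) than in the controls (668.3 to 757.8 CPM). Of 8 epicardial and mesothelial markers, 4 were higher and 3 lower, with sums of 184.9 to 194.6 and 233.2 to 258.4 CPM. No marker of these lists that was in the table was at 0 in all libraries. Each sum is weighted to the most abundant genes of its list and is not an amount of cells. The part of other cell types in the values of Cyp1b1, Ahrr and Cyp1a1 was not tested. All 12 interferon-stimulated genes checked were lower, and their summed level went from 11896 to 12179 CPM in the controls to 113.3 to 124.1 CPM with progesterone.

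The genes around the receptor were taken from 9 lists that exclude the 7 genes. Over all genes tested the median log2 fold change was 0.00, and the median of its absolute value was 0.34. Of all genes tested, 31.2% were called higher and 31.8% lower, and the counts of each list stand beside these shares. Calls are again those of edgeR's quasi-likelihood test adjusted over all genes. No list was tested as a set.

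Of the chaperone complex that holds the receptor in the cytosol, 1 of 6 tested genes was higher and 1 lower (median log2 fold change 0.02). Ptges3, which encodes the HSP90 co-chaperone p23, rose from 177 ± 6.68 to 199 ± 4.33 CPM. Src (log2 fold change -0.12 ± 0.05, adjusted p = 0.07) and Cdc37 (0.10 ± 0.04, adjusted p = 0.051) did not pass in edgeR's fit. Src passed without progesterone replicate 3 (-0.16, adjusted p = 0.037) and Cdc37 without control replicate 1 (0.12, adjusted p = 0.026), with upper quartile scaling (0.19), with a replicate block and with the filter of 1 CPM in 3 libraries.

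Among the bHLH-PAS relatives and the coactivators of the receptor, 3 of 14 tested were higher and 8 lower (median -0.28). The hypoxia-inducible factor genes Epas1 and Hif1a, whose products compete for ARNT, were lower. Hif3a, with 2 pooled counts in the controls and 3 with progesterone, could not be tested. Epas1, which encodes HIF-2 alpha, fell from 161 ± 7.1 to 48.7 ± 0.987 CPM, and Hif1a from 282 ± 7.84 to 191 ± 4.84 CPM. The 3 genes that rose were Npas1 (log2 fold change 0.86 ± 0.23) and the circadian clock genes Per2 (0.75 ± 0.06) and Clock (0.28 ± 0.04). Other clock genes of the list fell, namely Npas2 (-1.17 ± 0.16), Per3 (-0.86 ± 0.06), Bmal2 (-0.55 ± 0.21) and Bmal1 (-0.36 ± 0.09). Bmal2 was the weakest of these calls (adjusted p = 0.035 in edgeR's fit), on pooled counts of 163 in the controls and 102 with progesterone. The count lower in the list was 7 by DESeq2, without a filter and without any single library except progesterone replicate 3. Which gene lost its call is not reported here. Per1 did not pass (-0.08 ± 0.08). Npas2, Bmal1, Bmal2 and Per1 were named after their values were seen.

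Of the coregulators and crosstalk partners, 4 of 14 tested were higher and 5 lower (median -0.02). Sp1, Rb1 and Med1 rose, with log2 fold changes from 0.24 to 0.38. Relb, an NF-kB subunit that can bind the receptor, fell from 54.6 ± 1.44 to 16.9 ± 1.49 CPM, and Rela, its relative, by 0.37 on the log2 scale. Cul4b, which encodes the scaffold of a ubiquitin ligase that includes AHR, and the demethylase gene Kdm4a fell by 0.47 and 0.38. Esr1, the estrogen receptor gene, was at 0.614 ± 0.124 and 0.29 ± 0.0943 CPM. It passed (adjusted p = 0.039) but not without control replicate 1 or 3 or progesterone replicate 1 or 3 (adjusted p from 0.076 to 0.13), and not by DESeq2 (adjusted p = 0.14), limma on FPKM, without a filter, with a replicate block or with upper quartile scaling.

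Other AHR-responsive genes went in both directions, as all genes tested did (31.2% higher and 31.8% lower). Among 19 tested, 6 were higher and 8 lower (median -0.03 on the log2 scale), and 5 were lower with upper quartile scaling. The genes with the smallest adjusted p were Xdh, Serpinb2, Ugdh and Vav3. Xdh, xanthine dehydrogenase, fell from 414 ± 13.3 to 17.9 ± 0.854 CPM, and Serpinb2, a plasminogen activator inhibitor gene, from 25.6 ± 1.11 to 0.583 ± 0.198 CPM. Ugdh, which makes UDP-glucuronic acid for conjugation, fell from 213 ± 5.88 to 87.2 ± 2.43 CPM. Vav3, a guanine nucleotide exchange factor gene, rose from 6.1 ± 0.342 to 13.5 ± 0.849 CPM.

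Nqo1 and Cyp1a2, singled out after their values were seen because they are classical targets, did not pass in edgeR's fit or could not be tested. Nqo1, a quinone reductase gene that NRF2 also induces, was at 52.2, 49.6 and 38.3 CPM in the controls and at 56.8, 58.3 and 53.1 CPM with progesterone. Its groups did not overlap, but control replicate 3 stood apart and the log2 fold change was 0.26 ± 0.11 (adjusted p = 0.087 in edgeR's fit). Cyp1a2, the liver-enriched neighbour of Cyp1a1 in the family, had no count in the controls and 2 counts in 1 progesterone library. It is similar in sequence to Cyp1a1, and the counting could divide reads between them.

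**Figure D3:**
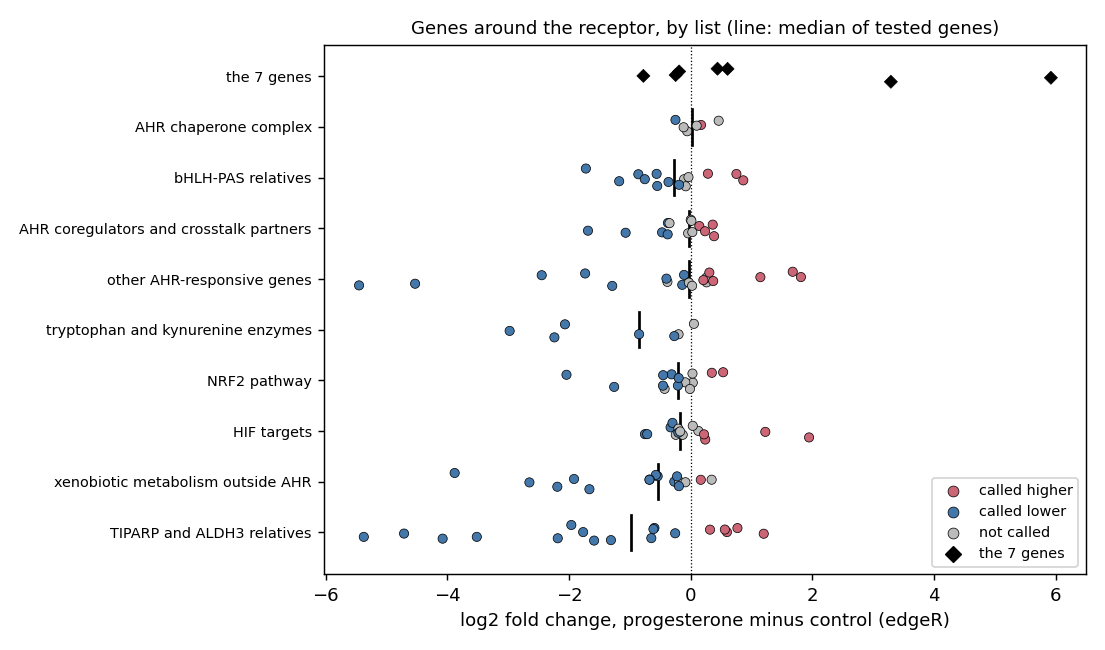
Log2 fold change (progesterone minus control, edgeR) of the 7 genes (diamonds) and of the tested genes of 9 lists (circles, coloured by the call), with a line at the median of each list. Cyp1a1 at 5.92 and Ahrr at 3.29 lie to the right of the tested genes of the lists, and the lists of TIPARP and ALDH3 relatives and of tryptophan enzymes have medians of -0.98 and -0.85.

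Of the enzymes that use tryptophan or kynurenine, some of whose products are ligands of the receptor, 7 of 15 could be tested, 5 were lower and none was higher (median -0.85). Kyat3, a kynurenine aminotransferase, fell from 18.5 ± 1.02 to 2.35 ± 0.108 CPM, and Aadat, which has the same activity, from 4.43 ± 0.927 to 0.937 ± 0.139 CPM. Qprt and Afmid, also of the kynurenine route, fell by 2.07 and 0.85 on the log2 scale. Wars1, the tryptophanyl-tRNA synthetase, which serves translation and not tryptophan breakdown, fell by 0.27. Il4i1, an amino acid oxidase gene whose products can activate the receptor, was at 6 ± 0.319 and 6.23 ± 0.844 CPM (log2 fold change 0.05 ± 0.14). Ido1, the interferon-induced first enzyme of the kynurenine route, was below the filter. Its pooled counts were 28 in the controls and 0 with progesterone, which makes it at least 8.62-fold lower when 3 counts over the progesterone group are taken as the limit. Il4i1 and Ido1 were named after their values were seen.

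NRF2, which shares target genes with AHR, was represented by its regulators and targets. Of 14 tested, 2 were higher and 7 lower (median -0.20). Slc7a11, the cystine transporter, and Me1, malic enzyme, rose by log2 fold changes of 0.53 ± 0.10 and 0.35 ± 0.05. Sqstm1, an autophagy receptor gene, fell from 519 ± 9.59 to 217 ± 7.15 CPM. Osgin1 and Keap1, the latter the inhibitor of NRF2, fell by 2.04 and 0.31 on the log2 scale.

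Of the targets of the hypoxia-inducible factors, which also need ARNT, 4 of 15 were higher and 5 lower (median -0.17). Ca9, a carbonic anhydrase, rose from 3.1 ± 0.421 to 12 ± 0.586 CPM, and Egln3, a prolyl hydroxylase of HIF, from 58.3 ± 1.86 to 137 ± 20.7 CPM. Pgk1 and Pdk1 had log2 fold changes of 0.22 and 0.24, and Pdk1 did not pass without control replicate 1 or 3 or progesterone replicate 2 or 3 (0.13 without progesterone replicate 2), or by limma on FPKM. P4ha1 and P4ha2, the collagen prolyl hydroxylases, fell by 0.75 and 0.71, and Vegfa and Ldha by 0.33 and 0.30. Ndrg1 fell by 0.20, and by 0.12 without progesterone replicate 1, where it did not pass (adjusted p = 0.097), nor did it without control replicate 2 or with upper quartile scaling (-0.11).

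Among xenobiotic enzymes and sensors that are not counted as AHR targets, 1 of 17 tested was higher and 13 were lower (median -0.54). Cyp27a1, the mitochondrial sterol 27-hydroxylase, fell from 121 ± 2.78 to 8.22 ± 0.418 CPM. The glutathione transferase genes Gstm2, Gstt1 and Gstp1 fell by 1.66, 1.92 and 0.68 on the log2 scale. They belong to families of similar sequence, between which the counting could divide reads. Cyp51, of sterol synthesis, was the gene that was higher (log2 fold change 0.17 ± 0.06), and it did not pass without control replicate 3 (0.09, adjusted p = 0.096) or without progesterone replicate 1 or 2, or by limma on FPKM. Cyp1a1 and Cyp1b1, which are not on this list, were higher in the same libraries.

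Relatives of TIPARP and ALDH3A1 were lower in 13 of 18 tested genes and higher in 5 (median -0.98). The interferon-inducible Parp14, Parp9, Parp12 and Parp10 fell from 508 ± 11.1 to 12.3 ± 1.58, from 337 ± 2.46 to 12.9 ± 0.809, from 128 ± 2.49 to 7.6 ± 0.627 and from 108 ± 2.46 to 9.44 ± 0.556 CPM. The fitted fold change of Tiparp, at -0.25 on the log2 scale, was small beside these. Parp1 and Parp2, the DNA damage polymerases, rose by log2 fold changes of 0.32 and 0.60, and the retinaldehyde dehydrogenase genes Aldh1a2 and Aldh1a3 by 0.77 and 1.2. Aldh1a1 (0.56 ± 0.23, adjusted p = 0.044) did not pass without control replicate 1 or 2 or progesterone replicate 1 or 3, by DESeq2 (adjusted p = 0.12), without a filter, with a replicate block or with library size scaling.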

How the data were processed

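Libraries were made from mRNA-enriched RNA with a TruSeq RNA kit (per the labels' protocols) and were grouped by their titles. Bowtie 0.12.2 and mm8, a mouse build, are named in the submitters' processing notes, but rows carry rat Ensembl identifiers. No label or header gives the rat build, annotation, read counter or strand setting. Deposited by the authors were raw counts per gene (21156793 to 25376220 per library, of which 682 rows are assembled loci without a name) and FPKM values per gene.

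The counts went through edgeR 4.0.16 (R 4.3.3): filterByExpr (minimum count 10, minimum total 15), TMM factors (0.984 to 1.01), robust glmQLFit and glmQLFTest, Benjamini-Hochberg adjustment over 15075 genes, threshold 0.05. The biological coefficient of variation was 9.04%. The SE was derived from the F statistic. The procedure was tested on simulated data in which few genes changed, unlike the 63% called here. That test does not show how the scaling behaves in these data. Within groups, no library was a copy of another (chi-square per degree of freedom of pairs 5.67 to 9.88).

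Named list genes were up to 4 per list with the smallest adjusted p, and any of a count of 5 or fewer, except for some genes that are not reported here. Pattern likeness was the Euclidean distance of log2 CPM (prior count 2) for genes with a mean of at least 1 CPM, with 3 genes named each. Of the list symbols, 3 were matched through older names and Srxn1 through its NCBI gene accession (RefSeq, GRCr8, names only). The other symbols found were matched by the gene name of the row. The members and lists were chosen with earlier results of these data known. Alternatives were upper quartile, RLE and library size scaling, a filter of 1 CPM in 3 libraries or none, each library left out, a replicate block, DESeq2 1.42.0, and limma 3.58.1 on log2(FPKM + 1) and log2(FPKM + 0.1).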

Additional observations from a re-analysis of the deposited data

How the results depend on the processing

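The log2 fold changes of the 7 genes kept their direction under the 15 alternatives run for each. Ranges were 0.39 to 0.54 for Ahr, 0.58 to 0.70 for Cyp1b1, 1.90 to 3.39 for Ahrr, 1.81 to 6.34 for Cyp1a1, -0.22 to -0.09 for Arnt, -0.29 to -0.15 for Tiparp and -1.29 to -0.33 for Aldh3a1. The lowest values of Ahrr and Cyp1a1 come from log2(FPKM + 1), whose pseudocount exceeds their control levels. With upper quartile scaling 1 of the 7 genes was called lower, and the count lower among other AHR-responsive genes was 5. With each library left out, 2 to 3 of the 7 genes were lower. For the chaperone complex the count higher was 2 with upper quartile scaling, with the filter of 1 CPM in 3 libraries and with a replicate block, and leaving out libraries gave 1 to 2 higher and 1 to 2 lower. For xenobiotic enzymes outside AHR the count higher was 0 with limma on log2(FPKM + 1) and on log2(FPKM + 0.1), and 0 to 1 with each library left out. Of 839 alternative values of the 56 named list genes, 32 lost and 5 gained a call, and none reversed. The cause was not tested.

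Same-numbered libraries did not visibly deviate together (correlations 0.05, 0.02 and -0.00 for numbers 1, 2 and 3). Pairs with unlike numbers ran from -0.09 to 0.07, and no pairing was used in edgeR's fit. With 3 libraries per group these values cannot show whether same-numbered libraries shared an animal or a culture. With a replicate block 4691 genes were called higher and 4817 lower, against 4707 and 4790. Not every library correlated best with its own number.

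Depth limits Cyp1a1 (8 counts over the controls) and Aldh3a1 (58 over the progesterone libraries) most.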
